A study of Rattus norvegicus with 4 samples.

Results

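The genes described here encode the proteins of the cytosolic ribosome, measured in pancreatic lymph node cells of BioBreeding rats that the labels call mast cells. A member was any gene whose probe set (a group of short probes for 1 transcript) carries a single symbol that starts with Rpl or Rps and a digit, or is Rplp0, Rplp1, Rplp2 or Rpsa. The Rps6k kinases, Rps19bp1 and the gene with a Y-linked name, Rps4y2, were left out. This gave 49 genes on 56 probe sets, of 14217 genes with a probe set of 1 symbol, and each gene was read from its brightest set. Of the 49 genes, 34 belong to the large and 15 to the small subunit by name. They comprise 42 standard ribosomal proteins, 5 paralogs (Rpl3l, Rpl7l1, Rpl26l1, Rpl39l1 and Rps27l) and 2 pseudogenes (Rpl37-ps2 and Rps4x-ps1).

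The cells were sorted as AA4+, after a surface antigen of rat mast cells, from female rats at day 65. The defining mast cell genes Kit and Gata2 were below the filter on dim probe sets on these arrays. The other 8 of 10 mast cell markers on the array were bright enough to be tested, Cpa3 and Cma1 among them. T cell, B cell, plasma cell and macrophage markers were bright enough too, except Cd28 of the T cell list. Because markers of several cell types were thus read together, the samples are called pools here and not mast cells. The diabetes-prone group (DP) was DRlyp/lyp, which carries the lyp mutation of Gimap5 in both copies, is short of peripheral T cells and develops autoimmune diabetes. The resistant group (DR) was DR+/+, with the normal allele. Each group is 1 pool of RNA from 8 animals, and the replicates are 2 separate amplifications of that pool, so 4 arrays of 2 pools were compared. The p-values therefore measure the spread between amplifications of 2 pools and not between animals or strains.

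The ribosome joins a small subunit, which reads the messenger RNA, to a large subunit, which forms the peptide bond. Each subunit holds 1 copy of nearly all of its proteins, so cells make these proteins in matched amounts, and their transcripts are among the most abundant in any cell. Many of these transcripts begin with a 5′ terminal oligopyrimidine tract, an unbroken run of C and T that starts with C at the first base and ties their translation to growth signals through the kinase mTOR. Activated and dividing lymphocytes and mast cells raise ribosome production.

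The sequence around the annotated transcript start is shown because this is where such a tract would lie. The members shown are the 5 that were lower in the DRlyp/lyp pool (Rpl24 to Rpl4) and the 6 with the largest higher differences (Rpl37a to Rpl7a), except Rpl37-ps2, which was not matched. Each line gives 15 bases before and 15 from the start on, read on the gene's strand from RefSeq's promoter table of the GRCr8 assembly. Capitals mark a run of at least 5 C or T, counted from a C within 5 bases of the start. More C or T may stand just before that C, as for Rpl14, Rpl4 and Rpl37a. The run of Rpl27a, 20 bases long, goes on past the window.
Rpl24, chr11:58128391-58128420, minus strand: gaatttagggaggagattctctaccctata
Rpl7l1, chr9:21695703-21695732, plus strand: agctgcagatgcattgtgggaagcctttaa
Rpl11, chr5:153560788-153560817, minus strand: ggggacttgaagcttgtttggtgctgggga
Rpl14, chr8:129163605-129163634, plus strand: gggcgggccctCTCCCTTCTCgctgagcgc
Rpl4, chr8:73566462-73566491, plus strand: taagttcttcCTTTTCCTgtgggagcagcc
Rpl37a, chr9:81748076-81748105, plus strand: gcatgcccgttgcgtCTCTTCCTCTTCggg
Rps27l, chr8:76443643-76443672, plus strand: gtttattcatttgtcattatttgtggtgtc
Rpl27a, chr1:172974558-172974587, plus strand: cgagacttggtgggCTCCTCCCTCTTTCTT
Rpsa, chr8:128728864-128728893, plus strand: cctttccgcgctaccctggaacgggtccgt
Rpl7a, chr3:30637121-30637150, plus strand: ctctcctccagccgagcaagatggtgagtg

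Promoter entries were matched for 42 of the 49 members, and 21 of them (50%) held such a run on the gene's strand. The share over all 33469 promoters of the table was 17%. On the opposite strand the run was found in 2 of 42 members (4.76%) and in 21.1% of all promoters. The run was present in 12 of 25 members that were higher in the DRlyp/lyp pool (48%), in 2 of 5 that were lower (40%) and in 7 of 12 others (58.3%). Windows with and without the run stand among both the higher and the lower genes printed above. A match says only that these letters lie near the annotated start, which need not be the start used in these cells.

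More ribosomal protein genes were higher than lower in the DRlyp/lyp pool at the deposited scaling, most of them by a small amount, with single genes from -1.05 (Rpl24) to 1.12 (Rpl37-ps2) on the log2 scale. Of 46 members tested, 29 were higher, 5 were lower and 12 passed neither way at an adjusted p under 0.05 in limma, while 20.9% of all 9349 genes tested were higher and 21.1% lower. The median log2 difference (DRlyp/lyp minus DR+/+) was 0.26 over the members and 0.001 over all genes, and the quartiles of the members were 0.025 and 0.38. Both DRlyp/lyp arrays stood above both DR+/+ arrays for 31 members, which held for 35.4% of all genes, and below both for 10 members, which held for 36.4%. The arrays of the pools overlapped for the other 5 members. The median log2 signal of the members was 12.75 and 12.81 on the DRlyp/lyp arrays and 12.53 and 12.55 on the DR+/+ arrays. Each DRlyp/lyp array thus lay above each DR+/+ array.

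Other bright probe sets were shifted by as much, and the rise depended on how the arrays were scaled. Among the 100 brightest probe sets, 52 were ribosomal (counting sets with several symbols) and had a median log2 difference of 0.29. The 48 others had the same median, 0.29, with 34 higher and 5 lower. With the arrays quantile normalized, which gives every array the same distribution of signals, the member median fell to 0.03, and 11 members were higher and 10 lower. The shares of all genes were then 20.8% higher and 20.9% lower. With the array medians made equal, 15 members were higher and 6 lower (all genes, 14.5% higher and 26.1% lower), and the member median was 0.14 against a median of -0.11 over all genes. Of the members' calls, 85.3% were higher at the deposited scaling, 71.4% with equal medians and 52.4% after quantile normalization. Without the intensity trend in limma's variance estimate, 4 members were higher and 2 lower at the deposited scaling, against 11.9% and 12.7% of all genes. With no filter on dim probe sets, 2 of 49 were higher and 1 lower, against 3.62% and 3.71% of all genes.

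**Figure D1:**
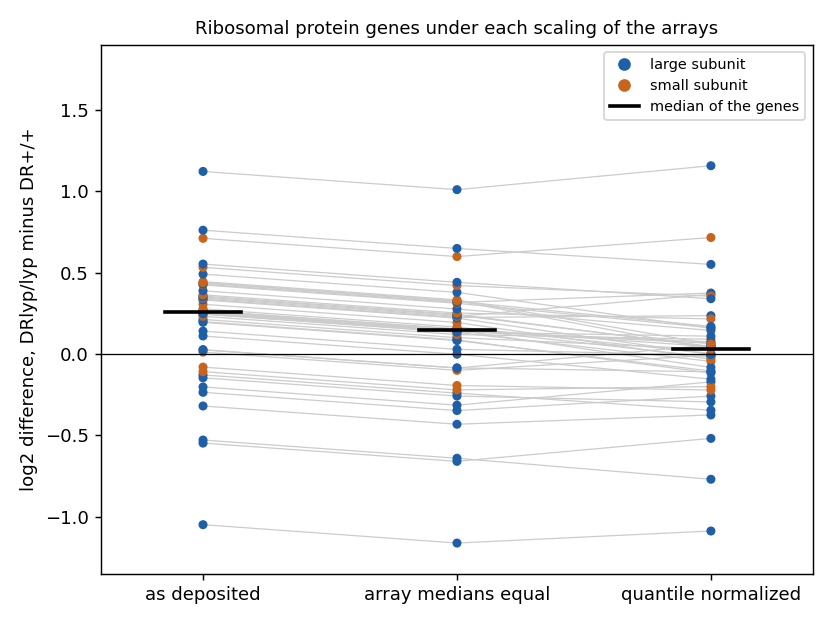
Log2 difference (DRlyp/lyp minus DR+/+) of each of the 46 ribosomal protein genes tested, under the deposited scaling, with array medians made equal and after quantile normalization. Grey lines join the same gene and black bars are medians. The median moves from 0.26 to 0.14 to 0.03. The sign turns for 4 of the 46 genes with equal medians and for 11 after quantile normalization. Rpl24, Rpl11, Rpl37a and Rpl37-ps2 are among the genes that keep their side of 0.

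RNA quality and the cell mixture differed between the pools along with these values, and their part in the result was not tested. The log2 excess of the 3′ over the 5′ control set of beta-actin, which grows as amplified RNA shortens, was 4.43 and 4.55 on the DRlyp/lyp arrays and 3.01 and 3.10 on the DR+/+ arrays. For GAPDH it was 2.49 and 2.44 against 1.74 and 1.57. All 10 T cell markers tested were higher, with signals, summed over the markers on the array, of 9948 and 9825 against 1866 and 1968 (Cd28 was below the filter on dim sets). So were 10 of 10 exocrine pancreas markers, at 8884 and 9196 against 209.7 and 222.7, though 6 of these were below the filter on both DR+/+ arrays and so could be tested only because they were high in the other pool, and both erythroid markers tested, at 1679 and 1584 against 156 and 161, of which Alas2 had the same limit. Of 10 macrophage markers 2 were higher and 7 lower (7683 and 7825 against 12444 and 13099), of 8 B cell markers 4 were lower (11563 and 12338 against 14944 and 16226), and of 6 plasma cell markers 2 were higher and 1 lower (17535 and 17718 against 14657 and 15076). Mast cell markers summed to 1264 and 1228 against 1147 and 1152, with 2 of 8 higher and 2 lower. These sums hide members that went apart, the tryptases Tpsab1 (-1.87) and Tpsb2 (-1.53) lower, and Fcer1a (0.85) and Il1rl1 higher, the last below the filter on both DR+/+ arrays. Fewer cells of a type and less RNA per cell cannot be told apart in such pools, and no difference here can be assigned to mast cells alone.

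A few large-subunit genes went against the majority and were lower in the DRlyp/lyp pool. Rpl24, which sits at the interface with the small subunit and forms a bridge to it, read 1601 and 1804 on the DRlyp/lyp arrays and 3506 and 3529 on the DR+/+ arrays. Its signal was 2.07-fold lower (log2 difference -1.05, SE 0.069, adjusted p = 6.716e-07 in limma). The call held in all 15 settings tried, the reported one included, with differences from -1.16 to -0.96. Read from its brightest set, no other member tested was lower by as much. Second sets of Rps24 (-1.075) and Rpl7l1 (-1.065) fell slightly further. The pools of Rpl24 were far apart beside the gap between the arrays of either pool.

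Rpl11, which with Rpl5 and the 5S ribosomal RNA forms the particle that binds Mdm2 when ribosome assembly fails, read 4904 and 5128 against 7350 and 7118. Its difference was -0.53 on the log2 scale (SE 0.048, adjusted p = 7.814e-06 in limma), and it was called lower in 14 of 15 settings. Its partner in that particle, Rpl5, went the other way at the deposited scaling, at 10354 and 9715 against 8305 and 7644 (0.33, adjusted p = 0.00033). After quantile normalization Rpl5 differed by -0.004 and Rpl11 by -0.77. The lower Rpl11 signal was thus seen under each of the 3 scalings, and the higher Rpl5 signal at the deposited scaling and with equal medians (0.22).

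Rpl14 read 3100 and 3444 against 3868 and 4303 (-0.32, SE 0.069, adjusted p = 0.00319 in limma), and was lower in 13 of 15 settings. Its other probe set was below the filter on dim sets. Rpl4, which reaches with a long loop into the tunnel where the nascent chain leaves, read 5215 and 5384 against 5882 and 5853. That difference was small (-0.15, adjusted p = 0.0265) and was called in 9 of 15 settings. Its call was lost whichever of the 4 arrays was left out (-0.12 to -0.17). Rpl6 (-0.13, adjusted p = 0.0912) did not pass the threshold at the deposited scaling and was lower with equal medians (-0.24) and after quantile normalization (-0.35).

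Among standard proteins of the large subunit, each read from its brightest set, Rpl37a, Rpl27a and Rpl7a had the largest higher differences. Rpl37a, a small zinc-binding protein, read 8592 and 8396 on the DRlyp/lyp arrays and 4861 and 5172 on the DR+/+ arrays. This was a 1.69-fold higher signal (0.76, SE 0.048, adjusted p = 4.769e-07 in limma), called in 15 of 15 settings with differences from 0.55 to 0.81. Rpl27a read 9110 and 8409 against 6132 and 5810 (0.55, adjusted p = 9.417e-06). It was higher in 14 of 15 settings. Rpl7a read 11443 and 10742 against 8343 and 7465 (0.49, adjusted p = 3.674e-05) and was higher in 13 of 15. Rpl37a, Rpl27a and Rpl7a were named by a rule that required pools without overlap. Each remained higher after quantile normalization, at 0.55, 0.34 and 0.16.

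**Figure D2:**
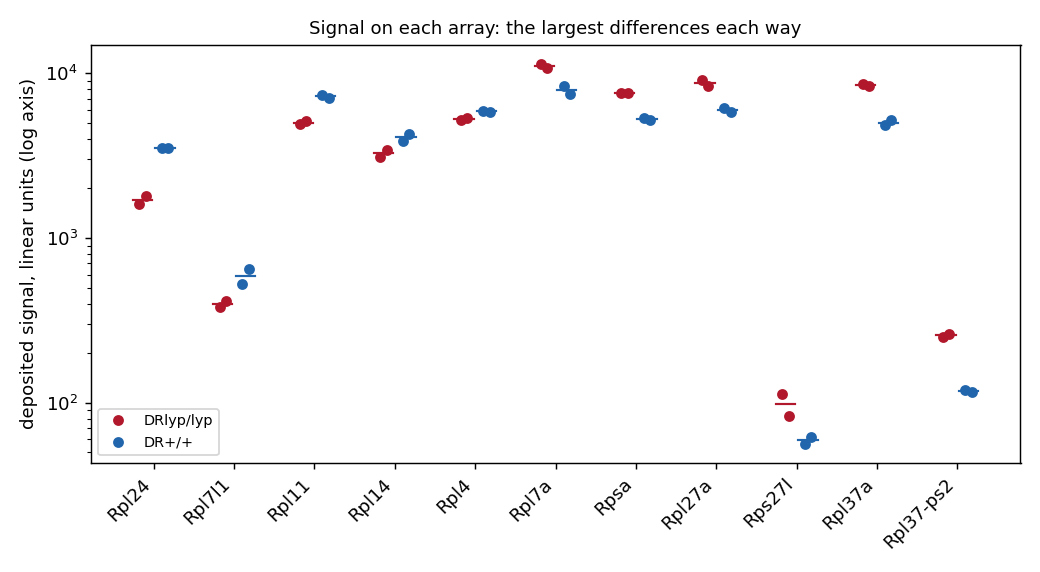
Deposited signal (linear units on a log axis) of 11 ribosomal protein genes on each of the 4 arrays, DRlyp/lyp in red and DR+/+ in blue, with a bar at the mean of each pool. They were chosen among genes that passed the threshold with no overlap between the pools, as the 6 largest higher differences and the 5 lower ones. For Rpl24 the DRlyp/lyp arrays lie at 1601 and 1804 against 3506 and 3529.

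On their brightest sets, the other standard large-subunit members that were higher differed by less than Rpl7a. At the active centre, Rpl3, which lies by the site of peptide bond formation, read 10607 and 10270 against 8965 and 8496 (0.26, adjusted p = 0.000631). Rplp0, the base of the stalk that draws in elongation factors, read 7109 and 7207 against 5942 and 6060 (0.25, adjusted p = 0.000823). Rpl13a, which also leaves the ribosome to silence inflammatory transcripts, read 8296 and 8453 against 7285 and 7360 (0.19, adjusted p = 0.00329). These 3 passed the threshold in limma at the deposited scaling, yet none did after quantile normalization, with differences of -0.083 for Rpl3, 0.065 for Rplp0 and -0.11 for Rpl13a.

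Around the exit tunnel, Rpl35 read 8784 and 8802 against 6379 and 6630 (0.43, adjusted p = 1.54e-05), and Rpl23a, the docking site of the signal recognition particle, read 6979 and 7132 against 5856 and 5999 (0.25, adjusted p = 0.000984). Rpl35 stayed higher after quantile normalization (0.17) and Rpl23a did not pass the threshold there (0.074). Rpl35a, a large-subunit protein unrelated to Rpl35 despite its name, read 9244 and 9443 against 7306 and 7307 (0.36; 0.044 after quantile normalization). Rpl41, the shortest ribosomal protein, read 8153 and 7990 against 6176 and 6163 (0.39; 0.14 and still past the threshold after quantile normalization). The remaining standard large-subunit members that were higher were Rpl23, Rpl34, Rpl22, Rpl12, Rpl18, Rpl7 and Rpl26, with differences from 0.20 (Rpl26) to 0.35 (Rpl23). Of these, Rpl34 alone was also higher after quantile normalization (0.23), and Rpl26 was then lower (-0.12). Rpl19, Rpl21, Rpl27, Rpl28 and Rpl39 did not pass the threshold, with differences from -0.20 (Rpl39) to 0.43 (Rpl28), the last from a dim set whose pools overlapped.

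In the small subunit the median log2 difference was 0.32, and 10 of 14 members tested were higher and 0 lower. In the large subunit it was 0.25, and 19 of 32 were higher and 5 lower. Of all genes, 20.9% were higher and 21.1% lower. No test compares the subunits, since genes are not replicates. After quantile normalization the medians were 0.046 (small, with 4 higher and 2 lower) and 0.013 (large, with 7 higher and 8 lower). The shares of all genes were then 20.8% higher and 20.9% lower, and the large-subunit counts were near them. On the brightest sets, the lower calls at the deposited scaling were all in the large subunit.

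**Figure D3:**
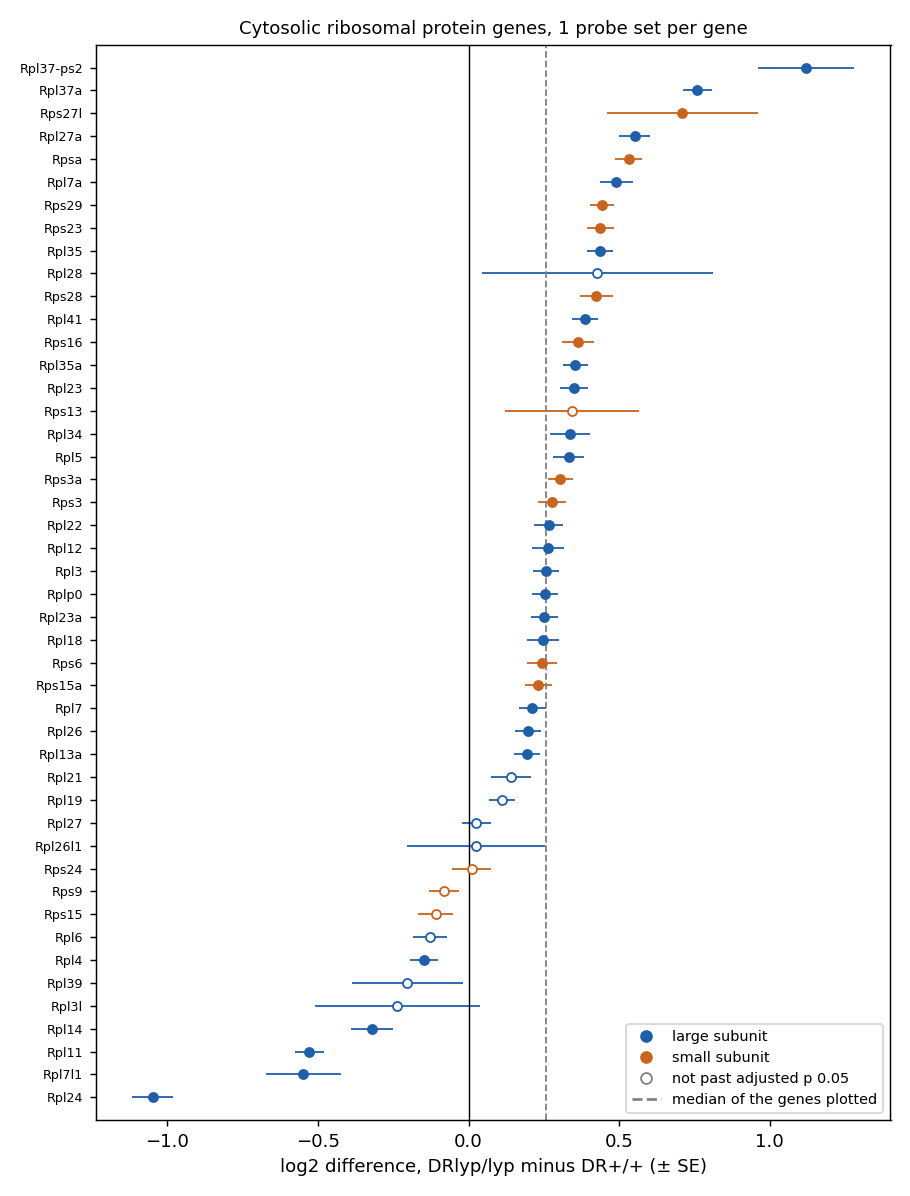
Log2 difference (DRlyp/lyp minus DR+/+) of the 46 members tested at the deposited scaling, in order, with bars of 1 SE from limma. Blue is the large and orange the small subunit, open circles did not pass an adjusted p of 0.05, and the dashed line is the member median of 0.26. Rpl24 stands alone at -1.05, and the longest bars belong to dim sets such as Rpl28 and Rpl3l.

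Rpsa, a small-subunit protein also known as the laminin receptor, showed the largest difference of the standard small-subunit members on their brightest sets. Its brightest probe set read 7627 and 7625 against 5330 and 5219 (0.53, SE 0.045, adjusted p = 4.274e-06 in limma). A second set read 4699 and 4868 against 4430 and 4696, where the pools overlapped (0.069, adjusted p = 0.327), and another was higher (0.35, adjusted p = 0.00943). The sets thus disagreed in size, and the brightest and the last carry suffixes of sets that can match more than 1 transcript.

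Rps23, which helps form the decoding centre, read 13671 and 12765 against 9978 and 9533 (0.44, adjusted p = 1.76e-05), and Rps29, a zinc-binding protein of the head, read 13087 and 12485 against 9411 and 9385 (0.44, adjusted p = 7.443e-06). After quantile normalization their differences were 0.031 and 0.060, neither past the threshold. Rps28, at the exit of the messenger channel, read 9061 and 8109 against 6553 and 6234 (0.42), and Rps16, in the head, read 6767 and 7391 against 5339 and 5663 (0.36). Rps28 (0.16) and Rps16 (0.21) were also higher after quantile normalization.

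Rps6, the substrate of the S6 kinases downstream of mTOR, read 8498 and 8091 against 7299 and 6717 (0.24, adjusted p = 0.00259). Rps3, at the entry of the messenger channel, read 8766 and 8300 against 7166 and 6912 (0.28, adjusted p = 0.000578 in limma). Rps3a, near the exit of that channel, read 9141 and 9227 against 7436 and 7435 (0.31, adjusted p = 0.000135 in limma). Rps15a read 6445 and 6560 against 5540 and 5542 (0.23, adjusted p = 0.0018). After quantile normalization these 4 differences were -0.046, 0.003, -0.033 and 0.09, none past the threshold. Rps9 (-0.081), Rps15 (-0.11), Rps24 (0.011) and Rps13 (0.34, a dim set) did not pass it at the deposited scaling.

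Among the copies, Rpl7l1, a paralog of Rpl7 that acts in assembly of the large subunit, was lower. It read 383 and 414 against 522 and 648 (-0.55, SE 0.125, adjusted p = 0.0047 in limma), and its second set read 275 and 283 against 556 and 614 (-1.06, adjusted p = 3.209e-05). Both sets were lower, in contrast to Rpl7 itself, whose brightest set was higher (0.21). Rps27l, a paralog of Rps27 that p53 induces, read 112 and 83.4 against 56.4 and 62.1 (0.71, adjusted p = 0.0417), called in 8 of 14 settings and lost without either DRlyp/lyp array (0.49 without replicate 1, 0.93 without replicate 2) or without DR+/+ replicate 1 (0.64). Rpl26l1, a near copy of Rpl26, overlapped between pools (0.025), and Rpl3l, the striated muscle form of Rpl3, did not pass the threshold (-0.24).

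Apart from a dim set of Rpl7 (1.66), the set of the pseudogene Rpl37-ps2 had the largest difference of any member. It read 252 and 263 on the DRlyp/lyp arrays and 120 and 117 on the DR+/+ arrays (1.12, 2.17-fold, SE 0.16, adjusted p = 0.000214 in limma), and was higher in 15 of 15 settings. Ribosomal protein genes have many processed copies in the genome, so a set may also read transcripts of near-identical copies, and whether this signal comes from the pseudogene is uncertain.

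Second probe sets of 2 standard members differed from the bright ones. A dim set of Rpl7 read 437 and 410 against 130 and 138 (1.66, adjusted p = 5.075e-06 in limma), far above the 0.21 of the bright set. A dim set of Rps24 read 55.4 and 80.9 against 142 and 140.3 (-1.08, adjusted p = 0.00366), against 0.011 in the bright set. The second set of Rpl3 differed by 0.19 and did not pass the threshold. No gene had sets that passed it in opposite directions. Rpl30, Rpl39l1 and Rps4x-ps1 were below the filter of 28.3 and were not tested; Rpl30 read 12.5 and 5.7 against 5.2 and 11.8, which is not shown to be above background. Another 36 sets carry a ribosomal symbol together with other symbols, and Rplp1, Rplp2, Rps14, Rps19 and Rps27a have no set of their own here. The median of these 36 sets at the deposited scaling was 0.19, with 19 higher and 3 lower. Of all genes, 20.9% were higher and 21.1% lower, a share counted over genes and not over sets. Values of the 36 sets under the other scalings are not given here.

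Among the genes that build or regulate ribosomes, some were higher and some lower. The counts below are at an adjusted p under 0.05 in limma, beside the 20.9% and 21.1% of all genes. With equal medians, 14.5% of all genes were higher and 26.1% lower, and counts given for that scaling stand beside these shares. Rack1, a small-subunit component under another name, read 6554 and 6327 against 5565 and 5359 (0.24), and did not pass the threshold under either other scaling. Of 12 genes listed for RNA polymerase I, which transcribes the ribosomal RNA, and its factors, 2 were higher and 0 lower (median 0.063). They were 2 subunits of its selectivity factor, Taf1d, at 260 and 243 against 109 and 111 (1.19), and Taf1c (0.63), and both kept their call under each scaling.

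Among 11 proteins of the particles that modify ribosomal RNA, or that help to assemble them, 7 were higher and 2 lower (median 0.30). With equal medians 2 were higher and 3 lower. The ATPase Ruvbl2 read 772 and 799 against 380 and 446 (0.93), and Gar1 (0.55) and Nop10 (0.39), both of the pseudouridylation particle, were also higher. The call on Nop10 was lost with equal medians (0.28). The lower genes were Nolc1, a chaperone of these particles (-0.95), and Nop56, a core protein of the methylation particle (-0.66).

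Assembly factors of the small subunit stood near the shares of all genes, with 10 of 46 higher and 10 lower (median -0.026). With equal medians 4 were higher and 13 lower, beside 14.5% and 26.1% of all genes. The kinase Riok1 (0.82), Utp20 (0.52) and Rrp12 (0.52) were higher, and Tsr3, which modifies the 18S ribosomal RNA (-1.43), Utp18 (-1.16) and Tbl3 (-0.74) were lower. The call on Utp20 was lost with equal medians (0.41). For the large subunit, 9 of 49 factors were higher and 10 lower (median -0.15), also near the shares of all genes. With equal medians 4 were higher and 15 lower. The helicase Ddx56 (0.96), Las1l (0.80) and Pelp1 (0.64) were higher. The lower ones included Rpf2, which brings Rpl5, Rpl11 and the 5S RNA into the particle (-0.78), the export adaptor Nmd3 (-0.68) and Tma16 (-0.61).

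The list of chaperones and importers of ribosomal proteins had 0 of 14 genes higher and 4 lower (median -0.18). It holds Syvn1, a ubiquitin ligase of the endoplasmic reticulum that is neither, at 491 and 438 against 827 and 833 (-0.84). Without Syvn1, 0 of 13 were higher and 3 lower (median -0.12), among them Aamp (-0.71) and the importin Ipo5 (-0.63), both lower under each scaling. Of 19 other genes whose transcripts carry a 5′ terminal oligopyrimidine tract, 6 were higher and 7 lower (median -0.014; 2 and 7, with a median of -0.13, with equal medians). Eif3f read 6139 and 6097 against 3678 and 3823 (0.71), and Vim (0.66) and Eif3l (0.36) were higher too, the last not past the threshold with equal medians (0.25). Lower were Eif4b (-0.90), Eif3m (-0.36) and Eif4a2 (-0.32), all initiation factors.

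Of 22 genes listed for control of the making or translation of ribosomal protein transcripts, 5 were higher and 4 lower (median 0.035). With equal medians 1 was higher and 4 lower. The list holds genes that need not have that role, such as Mdm2 and Rps6ka4. Myc, a transcription factor that drives ribosome production, read 128 and 145 against 226 and 278 (-0.88), its partner Max was lower too (-0.42), and so was Mdm2, the p53 ligase that Rpl11 binds (-0.46). Higher were Eif4ebp1 (0.48) and Eif4ebp2 (0.42), the translation repressors that mTOR switches off, and the kinase Rps6ka4 (0.43). These 3 higher calls were lost with equal medians, while Myc, Max and Mdm2 remained lower under each scaling.

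**Figure D4:**
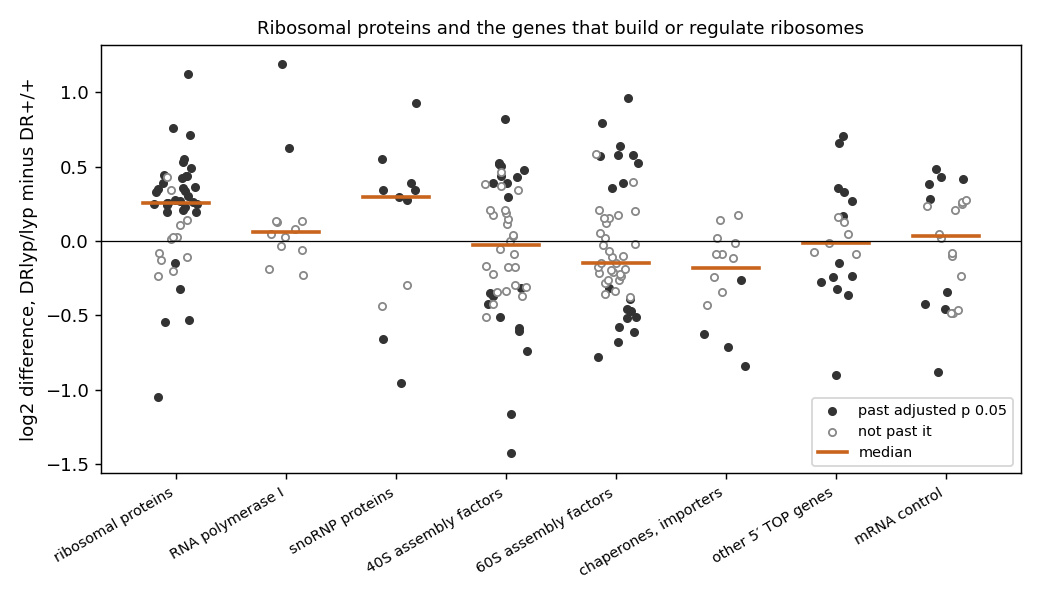
Log2 difference (DRlyp/lyp minus DR+/+, deposited scaling) of each gene tested in the ribosomal protein group and in 7 lists of genes that build or regulate ribosomes, spread sideways for clarity. Filled points passed an adjusted p of 0.05 in limma and orange bars are medians. The ribosomal proteins (median 0.26) and snoRNP proteins (0.30) lie mostly above 0, and the other lists have medians between -0.18 and 0.063.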

How the data were processed

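Each deposited value is a linear intensity, 1 for every probe set on every Affymetrix Rat Genome 230 2.0 array. About 50 ng of pooled RNA was amplified in 2 cycles, per the series' design text. The program behind the values, with its scaling, is not given in the sources used here. In the titles, DP and DR were read as DRlyp/lyp and DR+/+ from the sample descriptions. Of 31099 probe sets, 57 controls were left out. A floor at the pooled 25th percentile (6.8) preceded the log2 step. The 16068 sets that exceeded the pooled median (28.3) on 2 or more arrays were tested, with limma 3.58.1 in R 4.3.3 (lmFit, eBayes with an intensity trend, 2 residual degrees of freedom, two-sided). Benjamini-Hochberg adjustment ran over all sets tested, with a threshold of 0.05. In simulated data, changes were placed in 200 randomly picked tested sets, dim and bright alike, and few small changes were recovered. These were 1 of 50 at 0.25 log2, 3 of 50 at 0.5, 23 of 50 at 1 and 44 of 50 at 2. Far larger shares of genes passed the threshold in the deposited data, which makes the adjustment less strict, and most members are bright. The simulated rates are therefore not those of the members. Still, a gene that did not pass the threshold is not shown to be unchanged. Gene names are those of the platform annotation (2016), and sets with several symbols named none. Levels of different genes were not compared.

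The members, the gene lists and the tests were chosen with earlier results of these data known. Named by rule were the 6 largest differences each way that passed the threshold without overlap between pools, 13 fixed genes where present, forms of another member, members whose sets passed in opposite directions, and up to 3 genes each way per list. Other members were named to account for all, after their values were seen. The settings counted were the reported one and 14 alternatives: 2 scalings, 2 filters, a lower floor, an offset, a replicate block, each array left out, no trend, mean of probe sets and no shared-match sets. The number of arrays limits the precision. Python 3.11.15 and matplotlib 3.10.9 drew the figures.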

Additional observations from a re-analysis of the deposited data

How the results depend on the processing

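The count of 29 higher members became 11 after quantile normalization, 15 with equal array medians, 2 without a filter and 4 without the intensity trend. The count of 5 lower members became 10 after quantile normalization, 1 without a filter and 2 without the trend. The member median of 0.256 became 0.03 after quantile normalization and 0.144 with equal medians, and 0.224 to 0.287 with 1 array left out. For the large subunit (0.249) these were 0.013, 0.136 and 0.21 to 0.239. For the small subunit (0.324) they were 0.046, 0.212 and 0.278 to 0.313, with 0.291 at the 75th percentile filter and 0.289 with the offset of 50. The member median minus that of all genes was 0.028 after quantile normalization, 0.291 with the mean of probe sets and 0.226 to 0.295 with 1 array left out. After quantile normalization the sign turned for 11 of 46 members, among the genes named by rule for Rpl3 (-0.083), Rpl5 (-0.004), Rpl13a (-0.105), Rps6 (-0.046) and Rps3a (-0.033). The cause was not tested. For the named members, 260 other values were called in the same direction or, where there was no call, still passed neither way. Another 53 kept direction but lost the call. The 260 include uncalled values whose sign turned, such as Rpl26l1 with equal medians (0.025 to -0.087). The replicate numbers did not pair the arrays (correlation of deviations 0.044 over 16068 sets), and with a replicate block 31 members were higher and 6 lower. With 1 array left out, 28 to 29 members were higher and 4 to 5 lower, while 12.7% to 21.3% of all genes were higher and 14.6% to 19.7% lower, the lone array of a pool being assumed to vary like the other pool's.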
